A study of Mus musculus with 16 samples.

Results

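At embryonic day 14.5 (E14.5), 4 fetal liver arrays from mouse embryos that carried an ERG transgene were compared with 4 arrays from embryos that did not. The 8 arrays are all those of that stage among the 16 of the series, which also covers E12.5, and they were taken by their titles. The carriers were ERG Tg embryos, with the transgene and full-length GATA1, and ERG/GATA1s embryos, with the transgene and the GATA1s knock-in allele. The non-carriers were WT embryos and WT/GATA1s embryos, the second with the knock-in allele alone. Each of these 4 genotypes had 1 female and 1 male array by the labels. The 2 values of a group are given below with the array labelled female before the one labelled male.

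ERG is a transcription factor of the ETS family that blood stem cells and megakaryocytes need, and its human gene lies on the chromosome that is trisomic in Down syndrome. GATA1 directs the formation of red cells, megakaryocytes, mast cells and eosinophils, and GATA1s is a shorter isoform that lacks the start of the protein and is found in the transient leukaemia of newborns with Down syndrome. The liver is the main blood-forming organ of the mouse fetus at midgestation, and most of its cells then belong to the red cell lineage. The series was made to find genes that respond to ERG beside each GATA1 isoform. No source used here gives the promoter that drives the transgene, the species of its ERG sequence or the number of knock-in copies in females. Nor do the labels tell if RNA came from single embryos or from pools, so p-values measure only the spread between these samples, which may be technical.

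The values are log2 signal per probe set on Affymetrix arrays, as deposited after RMA, and each gene is read from 1 probe set. A total of 14981 genes were tested, those with signal above a dim level of 3.74 on at least 2 of the 8 arrays. The median signal of the arrays lay between 4.80 and 4.86, and precision is limited by how few arrays each group has. Of the marker lists of the labelled tissue, 31 of 36 red cell genes and 22 of 24 hepatocyte genes passed the dim level. Their mean signal on each array lay between 9.20 and 10.4 for the red cell genes and between 9.34 and 10.4 for the hepatocyte genes. Of 20 lymphoid genes, 10 passed the dim level. Xist, the RNA that silences 1 X chromosome in females, and 3 Y-linked genes were set against the labelled sex. On the ERG/GATA1s array labelled female Xist was 4.22 and the Y-linked mean 6.50, which places it with the arrays labelled male. Both ERG/GATA1s arrays thus had male markers (Xist 4.22 and 4.19). In WT/GATA1s the array labelled female had female ones (Xist 10.53, Y-linked mean 3.06) and the other male ones (3.97 and 6.267). On the GATA1s background an ERG difference therefore cannot be fully told apart from one of sex. Gata1 lies on the X chromosome, and the knock-in copies of females are not known. The ERG Tg array labelled male had both Xist (10.03) and Y-linked signal (5.273). Of the genes tested, 10 of 443 on the X chromosome and 0 of 4 on the Y were called in the comparison below, beside 3.04% of all genes. These counts do not test the part of sex in the calls. The 2 WT arrays correlated at 0.9865 over all probe sets, less than the pairs of ERG Tg (0.9969), ERG/GATA1s (0.9960) and WT/GATA1s (0.9957), and the WT array labelled female had the lowest mean signal of the hepatocyte genes.

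Both genes of the design were read first. Erg signal was 5.88 and 5.58 in ERG Tg, against 5.41 and 5.53 in WT, and 5.80 and 5.66 in ERG/GATA1s, against 5.32 and 5.55 in WT/GATA1s. All 4 carrier arrays lay above all 4 non-carrier arrays, the lowest of them by little. The log2 difference of 0.28 ± 0.0929 (SE) was not past the threshold in limma (adjusted p = 0.183). Whether the mouse probe set measures the transgene is not known, so this value checks no label. Gata1 signal was 9.22 and 9.29 in ERG Tg, against 9.22 and 9.22 in WT, and 9.53 and 9.40 in ERG/GATA1s, against 9.26 and 9.64 in WT/GATA1s. The groups overlapped, and the difference of 0.03 ± 0.0910 did not pass (adjusted p = 0.945).

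With the GATA1s allele as a block, limma called 456 genes at an adjusted p under 0.05 (Benjamini-Hochberg over all genes tested), which is 3.04% of them. Of these, 240 genes rose in carriers (1.6% of genes tested) and 216 fell (1.44%). The change was at least 2-fold for 80 genes, 55 higher and 25 lower, and its median size over the calls was 0.64 on the log2 scale. The last gene called was Pla2g4c (log2 difference -0.79, adjusted p = 0.0497) and the first not called Ralgps2 (0.60, adjusted p = 0.05). In a bulk sample, fewer cells of a type and less RNA per cell cannot be told apart. The number of calls rests on single arrays: it was 64 to 1050 when 1 array was left out, lowest without the WT/GATA1s array labelled female and highest without the WT array labelled female. A set of 48 calls, 33 higher and 15 lower, passed whichever of the 8 arrays was left out. An alternative chosen after seeing the data left out the ERG/GATA1s array labelled female, whose sex markers go against the label. It also left out the ERG Tg array labelled male, whose sex markers are mixed. limma then called 0 genes, with 1410 at an unadjusted p under 0.05. The 48 genes, none of which then passed, had 0.947 to 1.14 times the change. Their sign could not turn, since on each background both carrier arrays lay on one side of both non-carrier arrays. They had also been picked for passing without each of these arrays in turn, so the kept sign and size are no separate support. Adding labelled sex as a term gave 434 calls, and the named genes Aqp8, Igfbp1, Bpgm and Arhgap6 then missed the threshold (adjusted p 0.0504 to 0.0597). With the mean Y-linked level as the term instead, limma called 376 genes. Those named genes and Runx1, Srgn, Kdr, Tagln, Reln, Rasgrp1 and Hpgds then missed the threshold (adjusted p 0.0503 to 0.0659).

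**Figure D1:**
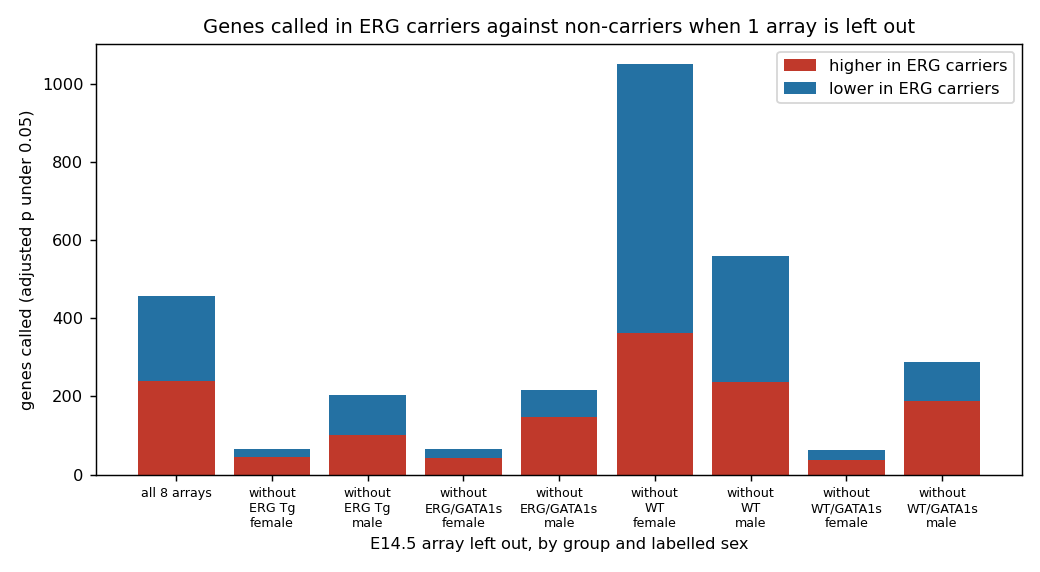
Genes called in ERG carriers against non-carriers at E14.5 (vertical axis, number of genes at an adjusted p under 0.05, split by direction) with all 8 arrays and with each array left out in turn (horizontal axis). The count is 456 with all arrays, 1050 without the WT array labelled female and between 64 and 66 without the array labelled female of any of the other 3 groups.

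Agreement on both GATA1 backgrounds was then asked of each call. All 456 genes differed in the same direction with full-length GATA1 and with GATA1s, in all 4 pairs of arrays of the same background and labelled sex. On each background both carrier arrays of every called gene lay on the same side of both non-carrier arrays, as they did for 14% of all genes tested. This follows in part from the fit, which counts any difference between backgrounds as error. For 328 of the 456 calls (71.9%) all 4 carrier arrays lay on one side of all 4 non-carrier arrays, whatever the background, against 5.95% of all genes tested. Over all genes tested, 58.2% had the same sign on both backgrounds.

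The difference on each background, 2 arrays against 2, was then read from a fit of the 4 group means, in which the spread comes from all 8 arrays. ERG Tg against WT gave 134 calls (0.894% of genes tested), 100 higher and 34 lower. ERG/GATA1s against WT/GATA1s gave 108 calls (0.721%), 35 higher and 73 lower. When only its own 4 arrays were fitted, the first comparison gave 0 calls (1314 genes at an unadjusted p under 0.05) and the second 229. A stricter agreement, passing on both backgrounds in the group-mean fit in the same direction, was met by 28 genes (0.187%), 20 higher and 8 lower, which is 20.9% of the first set of calls and 25.9% of the second. All 28 belong to the 48 calls of the 4 against 4 comparison that passed whichever array was left out. Their passing on both backgrounds was less stable. With 1 array left out, ERG Tg against WT gave 3 calls (without the ERG Tg array labelled female) to 1547 (without the WT array labelled male). ERG/GATA1s against WT/GATA1s gave 718 without either WT array, 2 without either ERG/GATA1s array and 0 without any ERG Tg or WT/GATA1s array. Of the 28 genes, 28 still passed on both without the WT array labelled male and 23 without the one labelled female. Only 1 did so without the ERG/GATA1s array labelled male, and 0 without any of the other 5 arrays. A further 311 of the 456 calls passed only over both backgrounds jointly. The rise was the larger with full-length GATA1 for 177 of the 240 genes that rose, and the fall was the larger with GATA1s for 156 of the 216 genes that fell. None of these 456 genes passed the test of a difference between backgrounds, so these 2 counts describe the fitted values only.

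**Figure D2:**
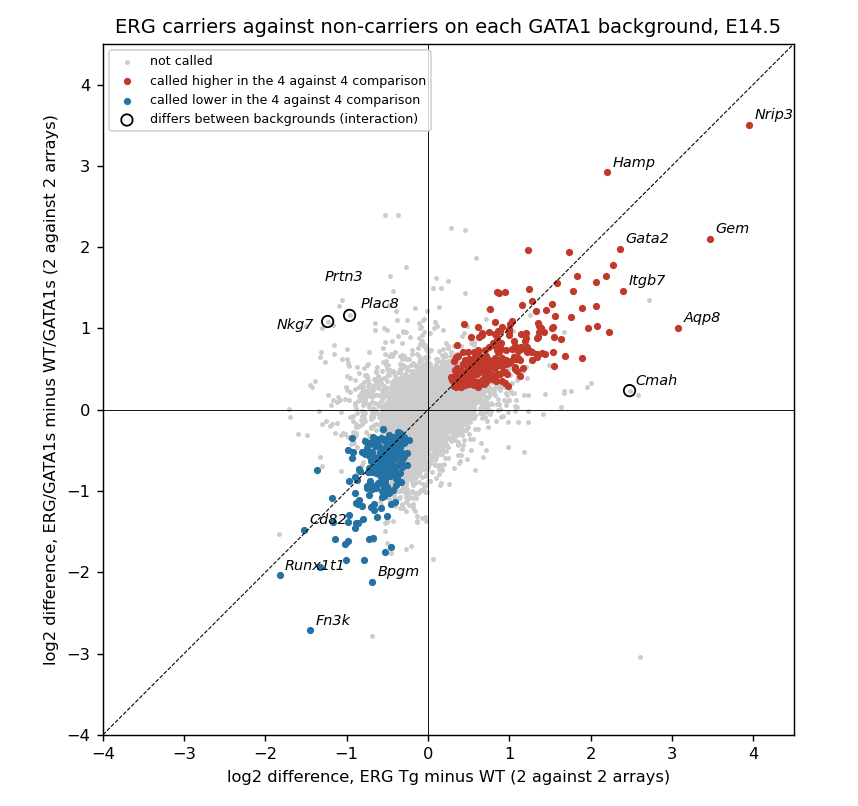
Log2 difference of each tested gene in ERG Tg minus WT (horizontal axis) and in ERG/GATA1s minus WT/GATA1s (vertical axis), each 2 arrays against 2. The 240 genes called higher (red) lie at upper right and the 216 called lower (blue) at lower left, while Nkg7, Plac8 and Cmah (circles) passed the test of a difference between backgrounds.

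Promoter sequences of the genes that passed on both backgrounds are shown for 4 of them. These are the 3 windows that hold the ETS hexamer GGAAGT and 1 of Gata2 without it. They are RefSeq windows of build GRCm38.p6, from 250 bases before to 50 after a transcript start, written 5′ to 3′ on the gene's strand. Of the 18 genes named for passing on both backgrounds, 12 had a window in the table, 19 windows in all. The ETS hexamer stood in 3 of the 19 and the GATA hexamer in 1, a window of Slc39a8 that is not printed. Capitals mark the ETS hexamer GGAAGT or its reverse complement ACTTCC, and shorter matches such as GGAA were not counted. Itgb7 (chr15:102231886-102232185, minus strand) and Cnrip1 (chr11:17051609-17051908, plus strand) held 1 copy each, and this window of Cd82 (chr2:93461802-93462101, minus strand) held 2, while the other 3 windows of Cd82 held none. Neither the ETS hexamer nor the GATA hexamer AGATAA (reverse complement TTATCT) lies in this window of Gata2 (chr6:88193641-88193940, plus strand).
Itgb7: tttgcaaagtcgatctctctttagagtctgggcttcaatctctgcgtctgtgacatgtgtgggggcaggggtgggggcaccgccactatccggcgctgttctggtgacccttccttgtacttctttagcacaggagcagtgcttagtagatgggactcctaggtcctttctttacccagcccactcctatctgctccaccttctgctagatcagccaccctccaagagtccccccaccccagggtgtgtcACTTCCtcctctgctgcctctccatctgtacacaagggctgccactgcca
Cnrip1: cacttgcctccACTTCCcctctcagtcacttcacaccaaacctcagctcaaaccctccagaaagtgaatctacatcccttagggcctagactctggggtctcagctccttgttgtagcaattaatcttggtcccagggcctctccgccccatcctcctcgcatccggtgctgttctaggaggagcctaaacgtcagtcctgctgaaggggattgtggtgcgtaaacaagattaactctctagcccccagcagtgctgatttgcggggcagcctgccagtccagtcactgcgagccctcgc
Gata2: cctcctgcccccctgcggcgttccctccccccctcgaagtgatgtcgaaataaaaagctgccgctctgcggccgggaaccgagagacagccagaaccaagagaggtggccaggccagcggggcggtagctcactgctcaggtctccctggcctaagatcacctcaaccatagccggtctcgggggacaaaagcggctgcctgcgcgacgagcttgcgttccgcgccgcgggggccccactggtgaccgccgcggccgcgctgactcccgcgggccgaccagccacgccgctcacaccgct
Cd82: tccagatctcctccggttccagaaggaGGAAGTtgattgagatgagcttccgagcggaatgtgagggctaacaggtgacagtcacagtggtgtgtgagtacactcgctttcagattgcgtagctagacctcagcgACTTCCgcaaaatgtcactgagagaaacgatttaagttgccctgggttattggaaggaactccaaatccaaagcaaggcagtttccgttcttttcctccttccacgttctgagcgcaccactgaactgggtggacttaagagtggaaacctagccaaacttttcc

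Over all windows, the ETS hexamer stood in 24.4% of those of genes called higher and 17.9% of those of genes called lower. Of the 14917 windows of all tested genes that had one, 26.3% held it. The GATA hexamer stood in 6.02% and 8.75%, against 7.17%. Both strands were searched, and overlapping matches of the 2 motifs were allowed. A match in a window this short is a description and no binding site.

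Genes higher in carriers on both backgrounds were led by Nrip3, a protein that interacts with nuclear receptors. Nrip3 signal was 8.42 and 7.77 in ERG Tg, against 4.28 and 4.01 in WT, and 7.98 and 7.14 in ERG/GATA1s, against 4.17 and 3.94 in WT/GATA1s. Non-carrier signals were close to the dim level, and the groups were far apart. Nrip3 rose 13.2-fold in carriers (log2 difference 3.73 ± 0.215, adjusted p = 0.000724). Gem, a small GTP-binding protein that restrains voltage-gated calcium channels, had 7.90 and 6.99 in ERG Tg, against 3.81 and 4.13 in WT, and 6.76 and 6.10 in ERG/GATA1s, against 4.37 and 4.28 in WT/GATA1s. It rose 6.92-fold (2.79 ± 0.315, adjusted p = 0.00706), with fitted differences of 3.48 beside full-length GATA1 and 2.11 beside GATA1s.

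Gata2, the GATA factor of stem cells, early progenitors and mast cells that GATA1 represses as red cells mature, rose 4.51-fold in carriers (2.17 ± 0.164, adjusted p = 0.00220). Its signal was 8.79 and 8.30 in ERG Tg, against 6.05 and 6.31 in WT, and 8.68 and 8.43 in ERG/GATA1s, against 6.31 and 6.84 in WT/GATA1s. Carriers of both backgrounds reached about the same level, and no array of one side came near the other side. The difference was 2.37 with full-length GATA1 and 1.98 with GATA1s, and the test of their difference was not passed (adjusted p = 0.955). The gene lists were chosen with earlier results of these data known, so list counts here and below are descriptions and no tests of enrichment. Of the 18 measured stem cell transcription factors, 3 rose (beside 1.6% of all genes tested) and 0 fell, with a list median of 0.03 against -0.01 over all genes tested. Beside Gata2 these were Lyl1, a partner of SCL-type helix-loop-helix complexes, at 0.54 ± 0.0864 (adjusted p = 0.0188), and Runx1, the factor that starts definitive blood formation, at 0.62 ± 0.120 (adjusted p = 0.0331). Gata2 kept its call whichever array was left out, while Lyl1 and Runx1 lost theirs without 4 and 6 of the arrays, the array labelled female of every group but WT among them (adjusted p up to 0.0846 and 0.133).

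Itgb7, the beta subunit of gut-homing integrins, had 7.27 and 6.92 in ERG Tg, against 4.71 and 4.68 in WT, and 6.34 and 5.99 in ERG/GATA1s, against 4.71 and 4.69 in WT/GATA1s. Non-carriers were almost equal, and the carriers were all higher, ERG Tg the most (3.82-fold, 1.93 ± 0.191, adjusted p = 0.00514). Itgb2, the beta subunit of leukocyte integrins, was the other of 16 measured integrins to pass, at 0.93 ± 0.111 (adjusted p = 0.00833). These 2 rises stand beside 1.6% of all genes tested. Of these 16, 9 had a negative difference, and the list median was -0.01, as over all genes tested. That median was -0.12 with full-length GATA1, where 12 were lower, and 0.17 with GATA1s, where 12 were higher. Sla2, an adaptor that dampens antigen receptor signalling, had 7.78 and 7.19 in ERG Tg, against 5.20 and 5.38 in WT, and 7.85 and 7.67 in ERG/GATA1s, against 5.81 and 6.43 in WT/GATA1s. Here too the groups stayed apart (3.78-fold, 1.92 ± 0.190, adjusted p = 0.00514).

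Def6, a signalling protein of lymphocytes, had 8.22 and 7.66 in ERG Tg, against 6.22 and 6.10 in WT, and 7.68 and 7.38 in ERG/GATA1s, against 6.0 and 6.14 in WT/GATA1s. The rise was 3.07-fold (1.62 ± 0.139, adjusted p = 0.00305), with 1.78 beside full-length GATA1 and 1.46 beside GATA1s. Septin1, a filament-forming GTPase, rose 3.52-fold (1.82 ± 0.159, adjusted p = 0.00315). Cpne7, a copine that binds membranes when calcium rises, had 6.93 and 6.90 in ERG Tg, against 4.99 and 5.17 in WT, and 6.66 and 6.51 in ERG/GATA1s, against 5.15 and 4.74 in WT/GATA1s. With little spread within groups, it shared with Nrip3 the lowest adjusted p of the comparison (0.000724, 3.33-fold, 1.74 ± 0.105). Cnrip1, which binds a cannabinoid receptor, rose 3.18-fold (1.67 ± 0.185, adjusted p = 0.00705), with 2.07 beside full-length GATA1 and 1.27 beside GATA1s.

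**Figure D3:**
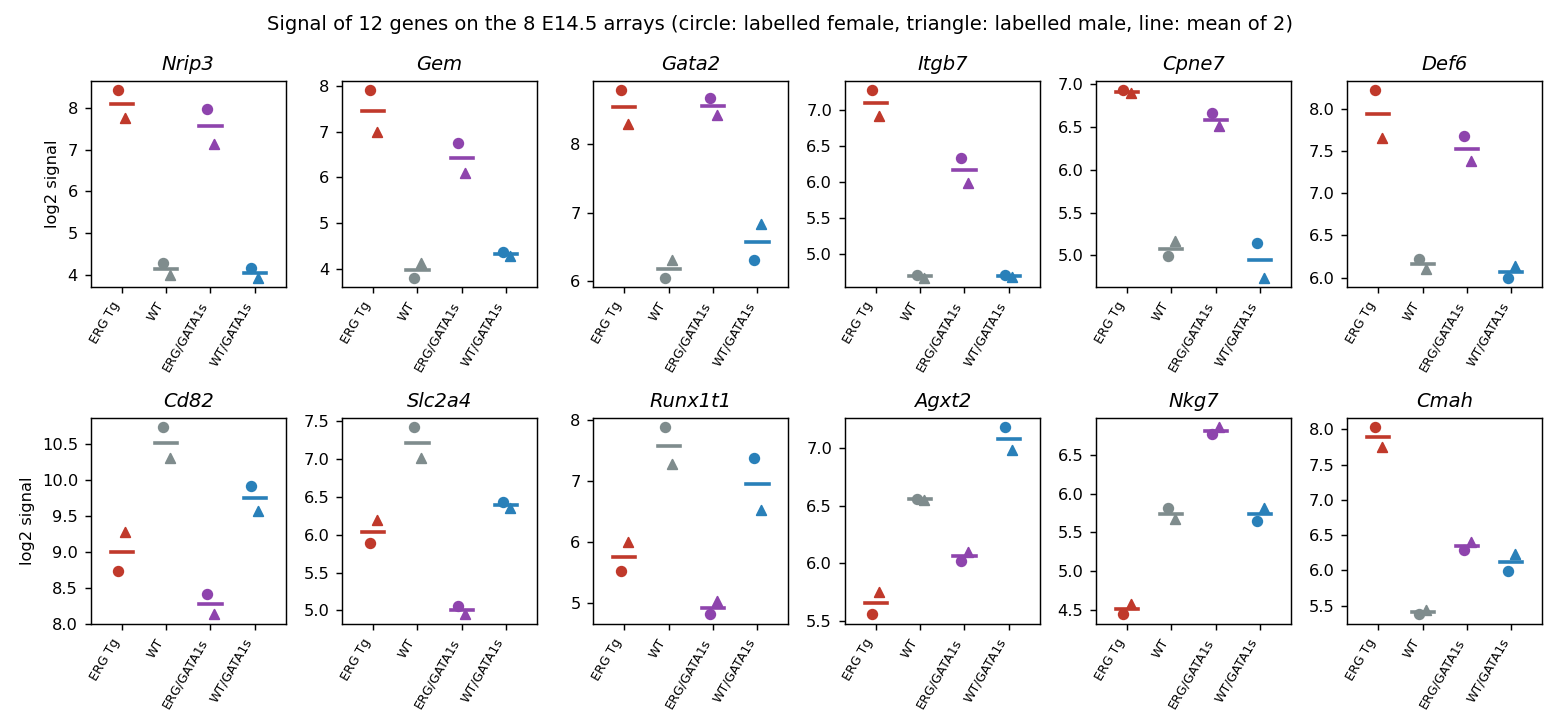
Log2 signal (vertical axis, own range per panel) of 12 genes on the 8 E14.5 arrays, by genotype (horizontal axis), with circles for arrays labelled female, triangles for arrays labelled male and lines at the mean of 2. Nrip3, Gem, Gata2, Itgb7, Cpne7 and Def6 are higher and Cd82, Slc2a4, Runx1t1 and Agxt2 lower in carriers on both backgrounds, while Nkg7 is lower in ERG Tg than in WT and higher in ERG/GATA1s than in WT/GATA1s.

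Both facilitated glucose transporters among the named genes passed on both backgrounds, in opposite directions. Slc2a3, the high-affinity transporter of neurons and leukocytes, had 9.64 and 9.15 in ERG Tg, against 7.87 and 7.74 in WT, and 10.06 and 9.47 in ERG/GATA1s, against 7.95 and 8.47 in WT/GATA1s (2.97-fold higher, 1.57 ± 0.171, adjusted p = 0.00695). Slc2a4, the insulin-responsive transporter of muscle and fat, had 5.89 and 6.19 in ERG Tg, against 7.42 and 7.01 in WT, and 5.06 and 4.95 in ERG/GATA1s, against 6.43 and 6.35 in WT/GATA1s. It fell 2.43-fold (-1.28 ± 0.113, adjusted p = 0.00315), and neither gene's groups overlapped.

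The other 10 of the 20 genes that rose on both backgrounds were named after their values were seen, except Rab38. Rab38, a GTPase of melanosome and lysosome-related transport, rose by 0.76 ± 0.0903 (adjusted p = 0.00817). Fermt3, the kindlin that activates integrins in blood cells, rose 2.41-fold, and Sash3, an adaptor of lymphocytes, 2.54-fold. Ptpn7, a phosphatase of blood cells, differed by 1.0 on the full-length background and by 0.995 on the GATA1s background. Ypel2 rose 2.98-fold, Homer3, a scaffold protein, 2.18-fold, and Ripk3, the kinase of necroptosis, 1.90-fold. Carmil3, a regulator of actin capping, rose 1.95-fold, Emp3, a membrane protein, 1.83-fold, and 4930550C14Rik 1.77-fold. For all 10, every carrier array lay above every non-carrier array, within the 5.95% of genes noted above.

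Cd82, a tetraspanin, had the largest of the 8 falls that passed on both backgrounds. Its signal was 8.73 and 9.28 in ERG Tg, against 10.74 and 10.31 in WT, and 8.41 and 8.13 in ERG/GATA1s, against 9.92 and 9.57 in WT/GATA1s. All carriers were below all non-carriers, by 1.52 with full-length GATA1 and 1.48 with GATA1s on fitted means, and Cd82 fell 2.82-fold (-1.50 ± 0.154, adjusted p = 0.00610). Aqp3, a water and glycerol channel, fell 2.02-fold (-1.02 ± 0.107, adjusted p = 0.00653). Agxt2, a mitochondrial aminotransferase of liver and kidney, had 5.56 and 5.75 in ERG Tg, against 6.56 and 6.55 in WT, and 6.02 and 6.10 in ERG/GATA1s, against 7.18 and 6.98 in WT/GATA1s. The GATA1s arrays were the higher on both sides of Agxt2, and ERG carriers the lower on both backgrounds (-0.96 ± 0.0790, adjusted p = 0.00305).

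Spata13 had 5.28 and 5.47 in ERG Tg, against 6.38 and 6.32 in WT, and 5.55 and 5.34 in ERG/GATA1s, against 6.35 and 6.30 in WT/GATA1s. Its non-carriers were nearly equal whatever the GATA1 allele, and it fell by 0.93 ± 0.0787 on the log2 scale (adjusted p = 0.00305). Ttc39a fell by 0.89, Ctsf, a lysosomal cathepsin, by 0.75, and Slc39a8, an importer of zinc and manganese, by 0.72 (adjusted p 0.00705, 0.00389 and 0.00514).

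Other falls, some of them larger, were in genes that did not pass on both backgrounds. Fn3k, the kinase that removes sugars bound to proteins, had 6.63 and 7.35 in ERG Tg, against 8.63 and 8.26 in WT, and 4.73 and 4.49 in ERG/GATA1s, against 7.61 and 7.03 in WT/GATA1s. Each background separated, but the ERG Tg and WT/GATA1s arrays overlapped. Fn3k fell 4.24-fold (-2.08 ± 0.284, adjusted p = 0.0124), a call lost without the ERG Tg or the ERG/GATA1s array labelled female (adjusted p up to 0.0606). Runx1t1, a corepressor best known as the fusion partner of RUNX1 in leukaemia, had 5.52 and 6.0 in ERG Tg, against 7.89 and 7.28 in WT, and 4.81 and 5.03 in ERG/GATA1s, against 7.38 and 6.53 in WT/GATA1s. No carrier reached the non-carriers (3.81-fold lower, -1.93 ± 0.212, adjusted p = 0.00705), and the call held whichever array was left out. The same was true of Abcb11, the bile salt export pump of hepatocytes (-1.30 ± 0.157, adjusted p = 0.00864).

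Of the other named falls, some are genes of maturing red cells. Bpgm, the enzyme that makes the bisphosphoglycerate of red cells, had 7.63 and 7.80 in ERG Tg, against 8.86 and 7.94 in WT, and 6.26 and 6.30 in ERG/GATA1s, against 8.41 and 8.38 in WT/GATA1s. The carriers were lower by 0.69 with full-length GATA1 and by 2.12 with GATA1s on fitted means (-1.40 ± 0.299 over both, adjusted p = 0.0457). The call on Bpgm was lost without any carrier or any WT/GATA1s array (adjusted p up to 0.143) and with labelled sex added as a term (0.0597). Xpo7, a nuclear export receptor of maturing erythroblasts, fell 2.50-fold (-1.32 ± 0.228, adjusted p = 0.0237). Its call was lost without 5 arrays, the ERG Tg array labelled female and all 4 of the GATA1s background (adjusted p up to 0.0908). Phospho1, a phosphatase of phosphocholine, fell 2.69-fold, Snx22, a sorting nexin, 3.11-fold, Mgll, the lipase of monoacylglycerols, 2.52-fold, and Slc16a10, a carrier of aromatic amino acids, 2.21-fold. Btnl10 fell 2.27-fold, Apol8 2.27-fold and Syt14, a synaptotagmin, 2.24-fold. These 7 lost their call without the ERG Tg array labelled female, and all but Snx22 and Mgll also without the WT/GATA1s array labelled female (adjusted p up to 0.0997). Leaving out the ERG/GATA1s array labelled female cost all but Mgll their call, and leaving out the one labelled male cost Phospho1, Btnl10 and Syt14 theirs.

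The red cell list as a whole stood lower in carriers. Of its 31 measured members, 0 rose and 4 fell (Xpo7, Uros, Cldn13 and Rhd, beside 1.44% of all genes tested), 29 had a negative difference, and the list median was -0.43 against -0.01 over all genes tested. The median was -0.29 with full-length GATA1, where 0 members passed, and -0.58 with GATA1s, where 4 fell, the same 4 genes. Of all 14981 genes tested, 34 fell on the first background and 73 on the second. As given above, the calls on the GATA1s background rest on single arrays. Uros, an enzyme of haem synthesis, had 8.40 and 8.50 in ERG Tg, against 8.95 and 8.94 in WT, and 7.57 and 7.22 in ERG/GATA1s, against 8.43 and 8.35 in WT/GATA1s (-0.75 ± 0.122, adjusted p = 0.0198). Rhd, the blood group antigen, and Cldn13, a claudin of mouse erythroblasts, fell by 0.66 and 0.78 (adjusted p 0.0381 and 0.0321). The mean signal of the list was 9.930 and 10.005 in ERG Tg, against 10.372 and 10.052 in WT, and 9.492 and 9.199 in ERG/GATA1s, against 9.978 and 9.895 in WT/GATA1s. The ERG/GATA1s arrays were lowest, while ERG Tg and the WT array labelled male were close. All 3 of Uros, Cldn13 and Rhd lost their call without the ERG Tg, the ERG/GATA1s or the WT/GATA1s array labelled female (adjusted p up to 0.116).

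Other lists moved beside it. All 27 measured cell cycle genes had a negative difference (median -0.15, against -0.01 over all genes tested), and 2 fell (beside 1.44% of all genes), Rrm2, a subunit of ribonucleotide reductase (-0.58 ± 0.0884, adjusted p = 0.0172), and Ccne1, cyclin E (-0.50 ± 0.0826, adjusted p = 0.0206). Both lost their call without the ERG Tg or the WT/GATA1s array labelled female or either ERG/GATA1s array (adjusted p up to 0.0856). Of 22 hepatocyte genes, 20 were lower and 0 passed (median -0.27). Their mean signal was 9.580 and 9.741 in ERG Tg, against 9.343 and 10.158 in WT, and 10.082 and 9.770 in ERG/GATA1s, against 10.341 and 10.431 in WT/GATA1s, so that carriers and non-carriers overlapped through the WT array labelled female. The part of liver cell content in the other results was not tested. Of the 4 measured globins, the embryonic alpha-type Hba-x rose (0.60 ± 0.112, adjusted p = 0.0300) and the embryonic beta-type Hbb-bh1 fell (-1.13 ± 0.221, adjusted p = 0.0340), beside 1.6% and 1.44% of all genes tested. Both calls were lost without 4 or more arrays, the array labelled female of every group but WT among them (adjusted p up to 0.126).

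Megakaryocyte and myeloid lists differed by background in their fitted values, and they were not alone in this. List medians also changed sign between full-length GATA1 and GATA1s for integrins (-0.12 and 0.17) and for lipoxygenase and prostanoid genes (-0.315 and 0.2). The same was true of stem and progenitor surface genes (-0.08 and 0.28) and lymphoid genes (-0.075 and 0.08). So it was of stem cell transcription factors (-0.0225 and 0.1375) and of mast cell, basophil and eosinophil genes (-0.4075 and 0.005). Of 22 measured megakaryocyte and platelet genes, 2 rose over both backgrounds (beside 1.6% of all genes tested), Gp5, a subunit of the platelet receptor for von Willebrand factor, and Treml1, a receptor of platelet granules. Gp5 had 7.76 and 7.51 in ERG Tg, against 6.31 and 6.27 in WT, and 7.71 and 7.64 in ERG/GATA1s, against 6.32 and 7.26 in WT/GATA1s (1.12 ± 0.194, adjusted p = 0.0243). Treml1 differed by 0.66 ± 0.126 (adjusted p = 0.0322), and its ERG Tg arrays lay below those of WT/GATA1s. Both calls were lost without any carrier array and without the WT/GATA1s array labelled female (adjusted p up to 0.120). The list median was -0.31 with full-length GATA1, where 15 of 22 genes were lower, and 0.31 with GATA1s, where 20 of 22 were higher. The mean signal of the list was 7.032 and 7.185 in ERG Tg, against 7.373 and 7.373 in WT. It was 8.691 and 8.596 in ERG/GATA1s, against 8.055 and 8.59 in WT/GATA1s. The WT/GATA1s array labelled male was thus level with the ERG/GATA1s array labelled male, and the one labelled female was the low one. No member of the list passed on the GATA1s background, and 1 fell on the other (beside 34 of all 14981 genes tested). It was the platelet chemokine Ppbp, named after its value was seen.

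Granulocyte and monocyte genes showed the same contrast. All 25 measured members were lower in ERG Tg than in WT (median -0.83) and 20 were higher in ERG/GATA1s than in WT/GATA1s (median 0.25). Mpo and Prtn3, enzymes of neutrophil granules, fell in ERG Tg (-1.27, adjusted p = 0.0277, and -1.10, adjusted p = 0.0448), and Prtn3 rose in ERG/GATA1s (1.27, adjusted p = 0.0334). Mpo was named after its value was seen. Of all 14981 genes tested, 34 fell in ERG Tg and 35 rose in ERG/GATA1s. The mean signal of the list was 5.718 and 5.883 in ERG Tg, against 6.884 and 6.311 in WT, and 7.089 and 6.794 in ERG/GATA1s, against 6.357 and 6.845 in WT/GATA1s. Carriers were the lower of the full-length arrays and overlapped with non-carriers on the GATA1s background. Over both backgrounds 1 of the 25 members passed, a fall, beside 1.44% of all genes tested that fell. It was Ly6g, a surface protein of neutrophils, which fell 2.58-fold (-1.37 ± 0.256, adjusted p = 0.0300). Its call was lost without any array but the 2 of WT (adjusted p up to 0.115). The lists themselves were not tested between backgrounds.

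The test of a difference between backgrounds passed for 3 genes (0.02% of genes tested), with 931 at an unadjusted p under 0.05. Nkg7, a protein of cytotoxic granules, had 4.44 and 4.57 in ERG Tg, against 5.81 and 5.67 in WT, and 6.77 and 6.86 in ERG/GATA1s, against 5.64 and 5.82 in WT/GATA1s. The non-carriers were alike, and the carriers lay below them with full-length GATA1 and above them with GATA1s (difference between backgrounds 2.32, adjusted p = 0.0105). Plac8, a protein of myeloid and lymphoid cells, had 5.76 and 5.62 in ERG Tg, against 6.73 and 6.58 in WT, and 8.14 and 8.03 in ERG/GATA1s, against 6.86 and 6.99 in WT/GATA1s, the same arrangement (2.13, adjusted p = 0.0105). Cmah, the hydroxylase that makes N-glycolylneuraminic acid, was instead high in ERG Tg only, with 8.03 and 7.75, against 5.38 and 5.44 in WT, and 6.29 and 6.41 in ERG/GATA1s, against 5.99 and 6.24 in WT/GATA1s (-2.25, adjusted p = 0.0187). The count of such genes was 0 to 434 with 1 array left out, 434 without the WT array labelled male and at most 1 without any carrier or WT/GATA1s array. Next in order were Prtn3 (2.37, adjusted p = 0.0732) and Akr1d1 (-1.17, adjusted p = 0.139), a reductase of bile acid synthesis that was dim in all but the WT/GATA1s arrays. Nkg7, Plac8 and Prtn3 were the 3 genes called on each background in opposite directions.

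**Figure D4:**
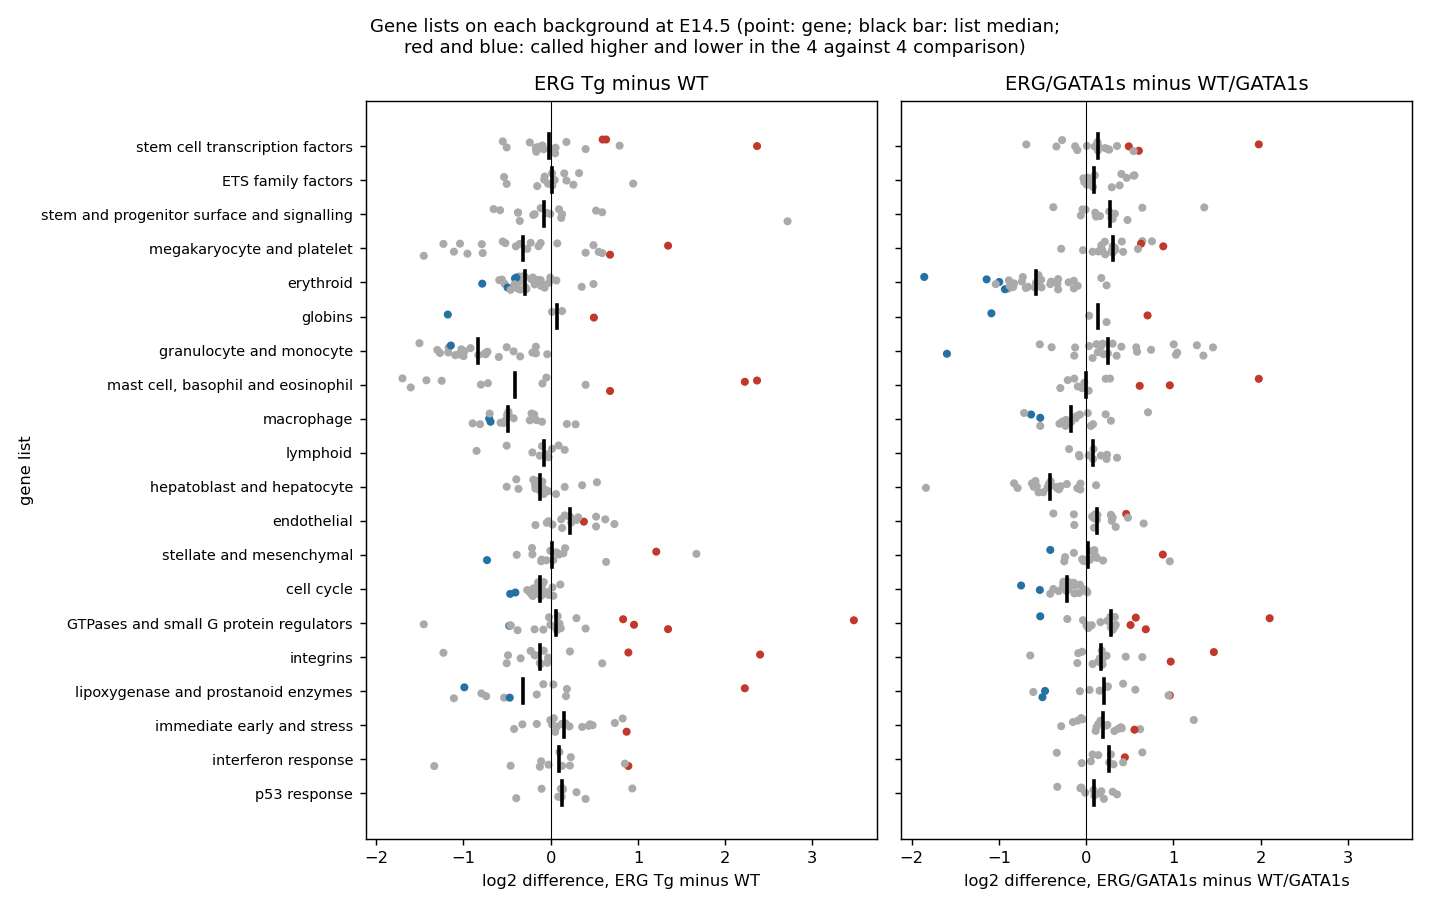
Log2 difference (horizontal axis) of each measured member of 20 gene lists (rows) in ERG Tg minus WT on the left and in ERG/GATA1s minus WT/GATA1s on the right. Points are genes, coloured where called higher (red) or lower (blue) over both backgrounds, and black bars are list medians: the granulocyte and monocyte median is -0.83 on the left and 0.25 on the right, and the erythroid median -0.29 and -0.58.

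Among small G proteins and their regulators, 4 of 20 rose and 1 fell, beside 1.6% and 1.44% of all genes tested. The list was chosen with earlier results of these data known, so its count is a description and no test of enrichment. Beside Gem and Rab38, Rac2, the Rac GTPase of blood cells, had 10.35 and 10.22 in ERG Tg, against 8.80 and 9.08 in WT, and 10.53 and 10.29 in ERG/GATA1s, against 9.48 and 9.97 in WT/GATA1s (2.02-fold, 1.02 ± 0.167, adjusted p = 0.0202). Carriers stayed above non-carriers, but the margin to the WT/GATA1s array labelled male was small. Arhgap6 rose by 0.67 ± 0.133 (adjusted p = 0.0350) and Rasgrp1, an exchange factor for Ras, fell by 0.50 ± 0.106 (adjusted p = 0.0443). Rac2, Arhgap6 and Rasgrp1 lost their call without the array labelled female of any group but WT (adjusted p up to 0.157), and Arhgap6 also with labelled sex added as a term (0.0513). The list median was 0.12.

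Alox5, the lipoxygenase that starts leukotriene synthesis, had 7.60 and 7.57 in ERG Tg, against 5.62 and 5.10 in WT, and 6.98 and 7.14 in ERG/GATA1s, against 5.70 and 6.50 in WT/GATA1s. All carriers lay above all non-carriers (3.02-fold, 1.59 ± 0.280, adjusted p = 0.0247), a call lost without any carrier array or the WT/GATA1s array labelled female (adjusted p up to 0.102). Of 12 measured lipoxygenase and prostanoid genes, Alox5 alone rose, and 2 fell (beside 1.44% of all genes tested): Hpgd, which degrades prostaglandins (-0.75 ± 0.139, adjusted p = 0.0296), and Hpgds, a prostaglandin synthase (-0.47 ± 0.0891, adjusted p = 0.0307). Alox5 also stood in the list of 12 measured mast cell, basophil and eosinophil genes, with Gata2 and Srgn, the granule proteoglycan serglycin (0.65 ± 0.127, adjusted p = 0.0346). Those 3 rose (beside 1.6% of all genes tested) and 0 fell, while 8 of the 12 had a negative difference and the list median was -0.21. The protease genes of the list, Cpa3, Tpsb2 and Prss34, averaged 4.60, 4.0025 and 3.75 in carriers, against 5.55, 4.06 and 3.88 in non-carriers, and did not pass. Hpgd, Hpgds and Srgn lost their call without 5 arrays each, among them the ERG Tg and the ERG/GATA1s arrays labelled female (adjusted p up to 0.138).

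Other large rises were in genes whose arrays varied widely, some of them coding for secreted proteins of liver. Hamp, the iron hormone hepcidin of hepatocytes, had 6.97 and 5.76 in ERG Tg, against 3.53 and 4.79 in WT, and 8.76 and 7.93 in ERG/GATA1s, against 4.36 and 6.48 in WT/GATA1s. The ERG Tg array labelled male lay below the WT/GATA1s array labelled male, and the rise of 2.57 ± 0.511 passed at an adjusted p of 0.0355. Igfbp1, the growth factor binding protein secreted by liver, had 9.87 and 9.11 in ERG Tg, against 6.97 and 8.54 in WT, and 10.83 and 9.68 in ERG/GATA1s, against 8.34 and 8.28 in WT/GATA1s (1.84 ± 0.365, adjusted p = 0.0354). Aqp8, a water channel, rose by 3.08 with full-length GATA1 in the group-mean fit (adjusted p = 0.00897), and differed by 1.01 with GATA1s, where it did not pass (adjusted p = 0.186); over both the value was 2.05 ± 0.404 (adjusted p = 0.0349). Ndrg2 rose 4.08-fold (2.03 ± 0.291, adjusted p = 0.0144) and Cxcl10, a chemokine that draws T cells, 3.02-fold (1.60 ± 0.259, adjusted p = 0.0198). Hamp, Aqp8, Igfbp1 and Cxcl10 lost the call without 5 or 6 of the arrays, the ERG Tg array labelled female and both ERG/GATA1s arrays among them (adjusted p up to 0.144). Aqp8 and Igfbp1 also lost it with labelled sex added as a term (adjusted p 0.0504 and 0.0516). Ndrg2 lost it without the WT/GATA1s or the ERG/GATA1s array labelled female (adjusted p up to 0.0600).

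The remaining lists held few calls, at most 2 each, beside 1.6% of all genes tested that rose and 1.44% that fell. Of 19 macrophage genes, 17 were lower (median -0.34) and 2 fell, Mertk and Timd4, receptors for dying cells (-0.67 ± 0.111, adjusted p = 0.0210, and -0.61 ± 0.116, adjusted p = 0.0318). The macrophage median was -0.485 with full-length GATA1, where 17 were lower, and -0.17 with GATA1s, where 13 were. Of 17 endothelial genes, 15 were higher (median 0.21) and 1 rose, Kdr, the receptor of vascular growth factor (0.42 ± 0.0859, adjusted p = 0.0399). Among 16 stellate and mesenchymal genes Tagln, an actin-binding protein of smooth muscle, rose (1.05 ± 0.204, adjusted p = 0.0340) and Reln, secreted by stellate cells, fell (-0.57 ± 0.114, adjusted p = 0.0361). Klf6 was the 1 of 18 immediate early and stress genes to rise (0.71 ± 0.130, adjusted p = 0.0276), and Ifit1 the 1 of 11 interferon response genes (0.67 ± 0.118, adjusted p = 0.0257). The non-carrier mean of Ifit1, 3.60, lay under the dim level, so the size of that difference is uncertain. Each of these 7 calls was lost without 4 or more arrays, the ERG Tg and the ERG/GATA1s arrays labelled female among them (adjusted p up to 0.151). Of 14 ETS family factors, 16 stem and progenitor surface genes, 10 lymphoid genes, 11 genes of the p53 response and 8 sex markers, 0 passed (list medians 0.01, 0.05, -0.001, 0.11 and -0.08).

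Whether the ERG difference was already present at E12.5 was asked with the 8 arrays of that stage in a fit of all 16. At E12.5 limma called 0 genes (0% of genes tested), with 702 at an unadjusted p under 0.05. The ERG difference itself differed between stages for 172 genes (1.15%), more positive at E14.5 for 135 and more negative for 37. With 1 array left out the count was 62 to 308, lowest without the E12.5 WT/GATA1s array labelled male. The 308 came from leaving out the female-labelled WT array of E14.5, and they were 151 more positive and 157 more negative. Of the 456 calls at E14.5, 149 passed this test, 113 of those that rose and 36 of those that fell. The E14.5 carriers and non-carriers enter both tests, so this overlap is given as a description.

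Gata2 shows the contrast. Its carrier minus non-carrier difference was 2.17 at E14.5, against -0.23 at E12.5 (difference between stages 2.40, adjusted p = 9.6e-05). For Nrip3 the differences were 3.73 at E14.5, against -0.26 at E12.5 (adjusted p = 1.04e-06), and for Gem 2.79, against 0.08 (adjusted p = 0.00115). Runx1t1 differed by -1.93 at E14.5, against 0.19 at E12.5 (adjusted p = 0.00115). Cd82, Mgll and Fn3k differed by -1.50, -1.34 and -2.08 at E14.5, against -0.49, -0.79 and -0.57 at E12.5, and the difference between stages did not pass (adjusted p 0.311, 0.860 and 0.258). These differences leave out the levels. Gata2 signal was 6.96 to 8.58 over the E12.5 arrays, 8.30 to 8.79 in E14.5 carriers and lowest in E14.5 non-carriers (6.05 to 6.84). Cd82 was 7.29 to 9.04 at E12.5, 8.13 to 9.28 in E14.5 carriers and highest in E14.5 non-carriers (9.57 to 10.74). Nrip3 was 4.45 to 5.13 at E12.5, highest in E14.5 carriers (7.14 to 8.42) and 3.94 to 4.28 in E14.5 non-carriers. Levels were not tested between stages. At E12.5 the sex markers of both WT/GATA1s and both ERG/GATA1s arrays lay on the female side, whatever the label (Xist 9.51 to 10.08). The E12.5 WT array labelled male had both signals (Xist 9.35, Y-linked mean 4.947), and the E12.5 ERG Tg array labelled male had less Xist (5.73) beside Y-linked signal (5.61). Their part in the difference between stages was not tested.

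**Figure D5:**
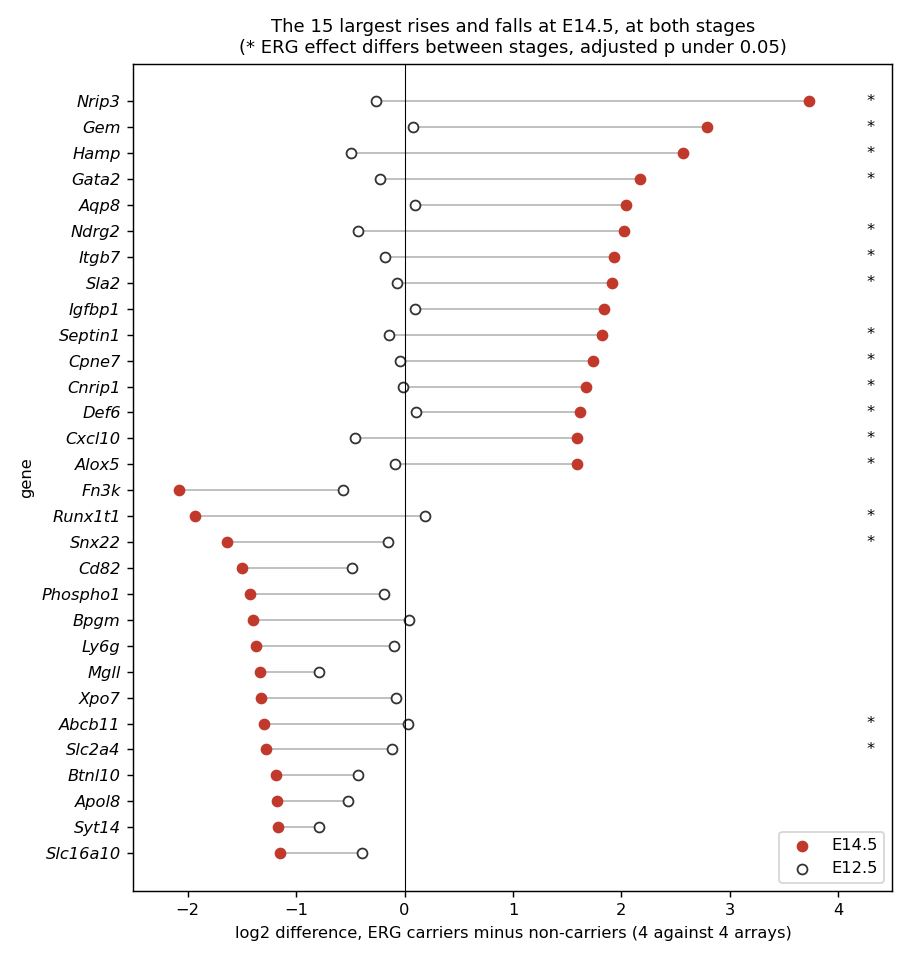
Log2 difference, ERG carriers minus non-carriers (horizontal axis, 4 arrays against 4), at E14.5 (filled) and E12.5 (open) for the 15 largest rises and the 15 largest falls at E14.5 (rows). An asterisk marks an ERG difference that differs between stages at an adjusted p under 0.05, as for Nrip3 (3.73 at E14.5, -0.26 at E12.5).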

How the data were processed

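Total RNA of fetal liver cell suspensions was biotin-labelled and hybridised to 16 Affymetrix arrays, per the labels' protocols. The authors deposited normalized log2 signal, 1 value for each probe set, to 2 decimals. Per the submitters' processing notes it comes from RMA, with no version. Its background correction was not varied, since scanner output was not analysed here.

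Of 28270 probe sets, 21780 had 1 gene symbol, 1617 several and 4873 none. Symbols came from the platform's annotation and were updated by gene identifier for 21689 probe sets. Where a symbol had several probe sets, the one brightest on average at E14.5 was used, and genes above the 30th percentile (3.74) on at least 2 of these arrays were kept, which left 14981 of 19934.

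limma 3.58.1 in R 4.3.3 fitted the 8 arrays with the ERG transgene and the GATA1s allele as terms. A fit of 4 group means gave the comparisons on each background and their difference, and a fit of 16 arrays with stage and GATA1s blocks gave E12.5 and the stage difference. All tests were two-sided (eBayes, p-values adjusted by Benjamini-Hochberg over all genes tested). Only the 4 against 4 fit with the GATA1s block was tested on simulated data, and the other fits were not. The alternatives were filters, further normalization, array centring, averaging of probe sets, sex terms, arrayWeights, trend and robust eBayes, other sets of arrays, and each array left out.

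The members, the 21 gene lists and the tests were chosen with earlier results of these data known. Genes named are Erg, Gata1 and Gata2, the 15 largest rises and falls with 1 sign in all 4 pairs, up to 8 called members per list, up to 10 per direction that passed on both backgrounds, and the 5 with the smallest p for a difference between backgrounds. Others are said to be named after their values were seen.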

Additional observations from a re-analysis of the deposited data

Results flagged for a closer look

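An array stood apart from the other 3 of its side for 5 genes. Gata1 in non-carriers was highest in the WT/GATA1s array labelled male, at 9.64. Igfbp1 in non-carriers was lowest in the WT array labelled female, at 6.97, the array that also had the lowest hepatocyte signal. Gp5 in non-carriers was highest in the WT/GATA1s array labelled male, at 7.26. In carriers, Hbb-bh1 was highest in the ERG/GATA1s array labelled male, at 8.82, and Arhgap6 in the one labelled female, at 6.64. Of 140 groups checked for 70 genes, chance marks about 1 in 20.

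The ERG difference depended on the GATA1 background for 3 genes, by limma's interaction term. It was 2.32 more positive on the log2 scale beside GATA1s for Nkg7 and 2.125 for Plac8, and it was more negative for Cmah (-2.245).

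The ERG difference at E14.5 minus that at E12.5 passed the test for 32 of the 70 named genes. On the log2 scale it was 3.99 for Nrip3, 3.0575 for Hamp, 2.71 for Gem, 2.455 for Ndrg2, 2.4025 for Gata2, 2.1125 for Itgb7 and 2.05 for Cxcl10. It was 1.9875 for Sla2, 1.965 for Septin1, 1.8775 for Slc2a3, 1.7775 for Cpne7, 1.68 for Cnrip1, 1.6775 for Alox5 and 1.5125 for Def6. Among list members it was 1.575 for Gp5, 1.185 for Rac2, 1.0775 for Treml1, 0.9975 for Itgb2, 0.78 for Runx1, 0.7275 for Ifit1 and 0.6625 for Rab38. Among genes lower in carriers it was -2.1175 for Runx1t1, -1.485 for Snx22, -1.3275 for Abcb11, -1.1625 for Slc2a4, -0.9425 for Spata13, -0.94 for Agxt2, -0.8025 for Ttc39a, -0.7975 for Slc39a8, -1.455 for Hbb-bh1, -0.8775 for Reln and -0.76 for Mertk. The part of the array labels and of the sex markers in these differences was not tested.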

How the results depend on the processing

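The 456 calls became 374 to 580 under other filters, normalization, centring, probe set averaging, sex terms, trend and robust eBayes, all 16 arrays or group means. All 48 calls that held whichever array was left out held under these and arrayWeights (47 of 47 that the stricter filter kept). arrayWeights gave 879 calls, 42.2% of them higher against 52.6%. Only the full-length background gave 0 (1314 at an unadjusted p under 0.05), and only the GATA1s background 229.

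ERG Tg against WT (134 calls) gave 21 with arrayWeights, 251 with all 16 arrays, and 0 with its own 4. ERG/GATA1s against WT/GATA1s (108) gave 64 with no filter, 181 with the Y-linked level added, 556 with arrayWeights, 199 with all 16 arrays and 229 with its own 4. The interaction (3) gave 5 with trend and robust eBayes and 12 with all 16 arrays. Another alternative, chosen after seeing the data, left out the ERG/GATA1s array with sex markers against its label and the ERG Tg array with mixed ones. The 4 against 4 comparison, ERG/GATA1s against WT/GATA1s and the interaction then kept no call, and ERG Tg against WT hardly any.

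With 1 array left out, calls ran from 64 to 1050 for the 4 against 4 comparison, 3 to 1547 for ERG Tg against WT, 0 to 718 for ERG/GATA1s against WT/GATA1s, 0 to 434 for the interaction, 0 to 2 at E12.5 and 62 to 308 for ERG by stage. Where a group kept 1 array, it was assumed to vary like the other groups. The labels give no replicate numbers. With arrays paired by labelled sex (sex as a term), the 4 against 4 comparison gave 434 calls, ERG Tg against WT 127 and ERG/GATA1s against WT/GATA1s 91. By their markers, that pairing sets a male ERG/GATA1s array against the female WT/GATA1s array, so it does not remove sex on the GATA1s background. The Y-linked level as a term cost Aqp8, Igfbp1, Bpgm, Arhgap6, Runx1, Srgn, Kdr, Tagln, Reln, Rasgrp1 and Hpgds their call (adjusted p up to 0.0659). The cause of these changes was not tested.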
